A study of Mus musculus with 35 samples.

Results

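A set of 10 integrin subunit genes of carcinoma cells was followed across primary pancreatic tumors, liver metastases and lung metastases. The members were *Itga2*, *Itga3*, *Itga5*, *Itga6*, *Itgav*, *Itgb1*, *Itgb3*, *Itgb4*, *Itgb5* and *Itgb6*, chosen by gene symbol. Each symbol matched 1 row of the count table, which gives 10 of 53465 genes, and every one passed the low-count filter in all 21 comparisons.

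Integrins are cell-surface receptors made of an α and a β chain that tie the cytoskeleton to the extracellular matrix. The pairing decides the ligand: α2β1 binds collagen, α3β1, α6β1 and α6β4 bind laminins of the basement membrane, and α5β1 and the αv receptors recognize the RGD motif of fibronectin and vitronectin. The αvβ6 receptor, which is restricted to epithelia, also binds latent TGFβ and helps to activate it, and *Itgb3* and *Itgb6* are known as genes that TGFβ can induce. SMAD4 is the shared partner of the receptor-activated SMADs in TGFβ signaling.

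The 35 RNA-seq libraries came from mKate2+ tumor cells sorted from mice that had received KC-shSmad4 cells. These are mouse pancreatic ductal adenocarcinoma lines derived from tumors of a model with Cre under *Ptf1a*, which acts in the pancreas, rtTA3 and the red reporter mKate2 from *Rosa26*, and a Dox-inducible shRNA against *Smad4*, linked to GFP, at *Col1a1*, and every group carried the same alleles. The hosts were *Foxn1* nu females of 6 to 8 weeks, which lack T cells but keep their own stroma, and the cells were injected into the pancreas, the spleen (liver metastases) or the tail vein (lung metastases). Dox, which silences *Smad4*, was kept (labelled off) or withdrawn after 4, 5 or 6 weeks in the pancreas, liver and lungs, respectively (labelled on), and cells were collected 7 or 14 days later. On day 7 there were 3 pancreas libraries labelled off and 2 labelled on, 2 and 3 from liver, and 4 and 2 from lung. Day 14 had 2 and 3 from pancreas, 3 and 3 from liver, and 4 and 4 from lung. The labels do not say whether libraries of a group came from separate mice or cell lines, so P values measure the spread between these libraries, which may be partly technical.

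The *Smad4* mRNA went against the labels in every organ. In the 18 libraries labelled off it lay between 69.9 and 143 CPM (read counts scaled to a common library size), and in the 17 labelled on between 14.8 and 22.4 CPM, so the groups did not overlap. The labels were kept as given. A negative label difference below is a lower value under the on label, that is, where *Smad4* mRNA was the lower.

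One liver library stood apart. It is labelled off on day 7, replicate 2, and is labelled paired-end while the other libraries are single-end. Its median correlation of log2 CPM was 0.96 with the pancreas libraries and 0.90 with the other liver libraries. The 8 fibroblast markers summed to 17431 CPM in it, against 177 to 2353 CPM in the other 10 liver libraries and 5845 to 16863 CPM in the pancreas. *Col3a1* gave 16136 CPM of the sum in it and 4877 to 14391 CPM in the pancreas, so the sum follows mostly this gene. *Rgs5*, of the same list, went the other way. It held 3.1 CPM in this library, with medians of 9.58 CPM in the other liver libraries and 7.23 CPM in the pancreas. Its 5 acinar markers summed to 313 CPM (other liver libraries, 4.88 to 16.9 CPM, and pancreas, 619 to 2769 CPM), and its 6 carcinoma epithelium markers to 3766 CPM (12137 to 16476 CPM and 2549 to 7846 CPM). The main results that rest on this library are given with and without it. The sort on mKate2 would remove host fibroblasts, yet none of the 8 fibroblast markers was at 0 in any organ, and the lung libraries had sums of 118 to 1543 CPM. Keratins 7, 8, 18 and 19, *Epcam* and *Cdh1*, the markers of the carcinoma epithelium, were detected in all 35 libraries. In such bulk libraries, fewer cells of a type and less RNA per cell cannot be told apart.

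Depth ran from 11885461 to 43571007 gene counts. The lowest count of any member in any library was 32 reads, for *Itgb6*, so no member was limited by the floor of 3 counts. Levels are CPM scaled by edgeR's TMM method, and levels of different genes are compared per kilobase of transcript. Means of an organ and label weight both days equally.

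*Itgb1*, the β1 chain that pairs with most of the α chains here, had the highest level per kilobase in all 35 libraries, with a median of 247 CPM per kb (139 to 490). *Itga3* (median, 72.1), *Itgb4* (70.9) and *Itgb5* (65.9 CPM per kb) followed. These 3 could not be ordered: *Itga3* lay above *Itgb4* in 24 of 35 libraries, and *Itgb4* above *Itgb5* in 20. *Itga6* (35.5), *Itga5* (27.9), *Itga2* (25.5) and *Itgav* (18.1 CPM per kb) came next, and *Itga5* lay above *Itga2* in 15 of 35 libraries. *Itgb3* (5.29) and *Itgb6* (1.16 CPM per kb) were lowest, and *Itgav* exceeded *Itgb3* in all 35 libraries. Thus the 2 β chains known as TGFβ-inducible partners of αv were the scarcest members, and among the 5 β chains summed per kilobase *Itgb1* held a median of 53.4% to 64.3% in each organ and label.

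**Figure D1:**
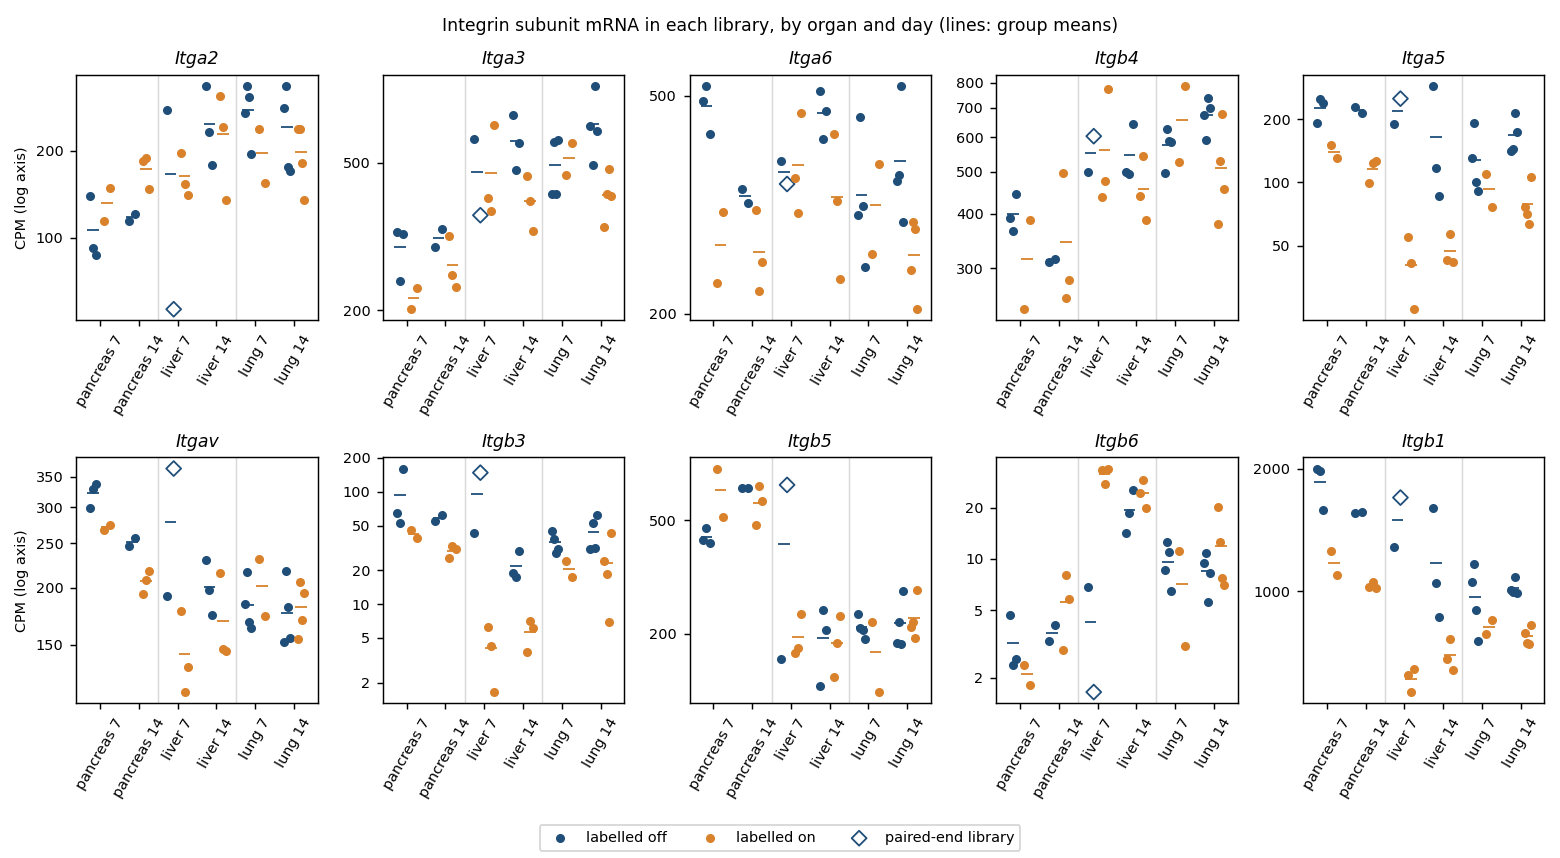
CPM (log axis) of each integrin subunit in the 35 libraries, by organ and day; blue points are labelled off, orange points labelled on, short lines group means, and the open diamond is the paired-end liver library. In the liver, every library labelled on lies below every library labelled off for Itga5, Itgb1 and Itgb3, and the 6 liver libraries labelled on hold 19.8 to 34 CPM of Itgb6.

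The first question was whether the subunits differed between the *Smad4* labels within each organ. The largest estimates were in the liver, where *Itga5*, *Itgb1* and *Itgb3* were lower and *Itgb6* was higher in libraries labelled on. The pancreas had *Itga5*, *Itgb1* and *Itgb3* lower as well, with smaller estimates, together with *Itga6* and *Itgav*. A test of the difference between liver and pancreas called *Itgb3* alone, and 0 members without the paired-end library. In the lungs no member passed the threshold on average over both days. A gene was called at a Benjamini-Hochberg adjusted P value under 0.05 in edgeR's quasi-likelihood test over all genes. On average over both days, 4 of 10 members were called in the liver, where 14.6% of 16913 genes were called, 5 of 10 in the pancreas (19% of 15093 genes) and 0 of 10 in the lungs (0.129% of 16220 genes).

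*Itgb3*, the β3 chain of the vitronectin receptor (chr11:104608000-104670476, plus strand, GRCm38), had the widest range in the liver. Libraries labelled on held 6.28, 4.2 and 1.65 CPM on day 7 and 3.77, 7.14 and 6.17 CPM on day 14. Libraries labelled off held 42.6 CPM and, in the paired-end library, 148 CPM on day 7, and 18.9, 17.6 and 29.7 CPM on day 14. The groups did not overlap on either day. Averaged over both days, *Itgb3* was 9.81-fold lower in the libraries labelled on (log2 fold change, −3.29 ± 0.42 (SE), adjusted P = 0.0055). It was 6.74-fold lower without the paired-end library (−2.75 ± 0.37, adjusted P = 0.0107), and the call held without any other single library. In the pancreas, *Itgb3* stood at 65.4, 53.2 and 161 CPM on day 7 and 54.9 and 62.2 CPM on day 14 in libraries labelled off. It stood at 45.4 and 38.7 CPM, and at 25.8, 33.1 and 30.8 CPM, in those labelled on, so all 5 lay below all 5 labelled off. The difference was −1.05 ± 0.31 (adjusted P = 0.0486). Without the library at 161 CPM, replicate 3, it was −0.73 with an adjusted P value of 0.00425. The call was lost (adjusted P, 0.0797 to 0.17) without any 1 of 7 others, namely either library labelled off and any of the 3 labelled on on day 14 and either labelled on on day 7. In the lungs the 8 libraries labelled off ranged from 28.5 to 61.7 CPM (median, 34.8) and the 6 labelled on from 6.98 to 42.7 CPM (median, 21.3), which overlap (−0.86 ± 0.33, adjusted P = 0.363).

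*Itga5*, the α chain of the fibronectin receptor α5β1 (chr15:103344286-103366763, minus strand), also had its largest estimate in the liver, while those of the pancreas and lungs were close. In the liver it stood at 55.3, 41.5 and 25.0 CPM on day 7 and 42.7, 57.1 and 41.9 CPM on day 14 in libraries labelled on. Those labelled off held 189 CPM and 250 CPM, the latter paired-end, and on day 14 288, 117 and 86.5 CPM. All 6 libraries labelled on thus lay below all 5 labelled off. The average difference was 4.53-fold (−2.18 ± 0.34, adjusted P = 0.00747), and 4.29-fold without the paired-end library (−2.10 ± 0.38, adjusted P = 0.0196). In the pancreas, libraries labelled off held 191, 249 and 238 CPM on day 7 and 227 and 214 CPM on day 14, against 150 and 130 CPM and 99.0, 124 and 126 CPM in those labelled on. The groups were again apart, with a difference of −0.80 ± 0.10 (adjusted P = 0.00106). The lung libraries overlapped, with 91.0 to 213 CPM labelled off (median, 143) and 63.2 to 110 CPM labelled on (median, 76.5, difference, −0.77 ± 0.20, adjusted P = 0.131). On day 14 alone, the 4 lung libraries labelled on (76.6, 71.1, 63.2 and 106 CPM) lay below the 4 labelled off (141, 144, 213 and 173 CPM). That difference of −1.09 ± 0.20 missed the threshold (adjusted P = 0.17). With the replicate number as a block it passed (adjusted P = 0.0272), and *Itga5* was the 1 member called there (1.38% of 14751 genes). The labels do not say that this number pairs libraries.

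*Itgb1* (chr8:128685654-128733200, plus strand), the partner of α5, moved less on the log scale at a far higher level. In the liver, libraries labelled on held 621, 565 and 644 CPM on day 7 and 682, 764 and 640 CPM on day 14. Libraries labelled off held 1286 and 1698 (paired-end) CPM, and 1602, 1048 and 863 CPM. No library labelled on reached the lowest labelled off. The average difference was 2.11-fold (−1.08 ± 0.19, adjusted P = 0.0102), and −1 ± 0.21 (adjusted P = 0.0301) without the paired-end library. In the pancreas, libraries labelled off held 2001, 1976, 1582, 1560 and 1561 CPM, and those labelled on 1257, 1094, 1026, 1054 and 1017 CPM. The difference was −0.62 ± 0.09 (adjusted P = 0.00183), without overlap. In the lungs the ranges were 755 to 1166 CPM labelled off (median, 1001) and 740 to 850 CPM labelled on (median, 785, difference, −0.32 ± 0.11, adjusted P = 0.303).

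The promoters of the members called in the same direction in 2 organs are shown because these genes moved together. Of *Itga5*, *Itgb1* and *Itgb3*, the RefSeq table of GRCm38.p6 promoters held the first 2 (7 of 10 members matched). The 250 bases upstream of each start are printed 5′ to 3′ on the strand of the gene, and capitals mark CAGAC or its reverse complement GTCTG, the short SMAD-binding element.
Itgb1 (chr8:128685404-128685653, plus strand): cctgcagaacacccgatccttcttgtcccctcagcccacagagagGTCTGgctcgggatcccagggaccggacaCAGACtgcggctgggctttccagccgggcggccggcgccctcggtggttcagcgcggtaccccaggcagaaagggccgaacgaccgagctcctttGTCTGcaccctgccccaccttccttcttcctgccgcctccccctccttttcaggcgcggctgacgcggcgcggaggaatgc
Itga5 (chr15:103366792-103367041, minus strand): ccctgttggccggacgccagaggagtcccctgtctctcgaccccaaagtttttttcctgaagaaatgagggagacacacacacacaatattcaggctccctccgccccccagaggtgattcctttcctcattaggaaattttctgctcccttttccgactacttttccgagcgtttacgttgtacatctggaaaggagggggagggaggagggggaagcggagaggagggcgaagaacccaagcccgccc
The *Itgb1* stretch had 3 matches on either strand and the *Itga5* stretch 0, while 42.2% of 32851 promoters in the table had at least 1. The KLF motif GGGTG or CACCC matched 2 times in *Itgb1* and 0 times in *Itga5* (52% of promoters), and both stretches had 0 matches for the AP-1 motif TGANTCA (6.75%) and the RUNX motif TGTGGT or ACCACA (14%). GC content was 68% in *Itgb1* and 55.6% in *Itga5*. A match to such short motifs is a description of the sequence only.

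*Itgb6*, the β chain of the epithelial receptor αvβ6 (chr2:60598292-60722643, minus strand), was the 1 member called higher on average over both days. In the liver it stood at 33.5, 27.5 and 34 CPM on day 7 and 24.5, 29.2 and 19.8 CPM on day 14 in libraries labelled on. Libraries labelled off held 6.86 and 1.65 (paired-end) CPM on day 7, and 14.2, 18.6 and 25.4 CPM on day 14. The groups were apart on day 7 and overlapped on day 14. The average difference was 2.92-fold (1.54 ± 0.34, adjusted P = 0.0191), and 2.29-fold without the paired-end library (1.19 ± 0.21, adjusted P = 0.0185). In the pancreas all 10 libraries held 1.81 to 8.03 CPM (−0.01 ± 0.29, adjusted P = 0.992), and in the lungs all 14 held 3.09 to 20.2 CPM (0.01 ± 0.32, adjusted P = 0.999). The 95% intervals of these differences were −0.66 to 0.64 and −0.67 to 0.70 on the log2 scale.

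Of the α3, α6 and β4 chains of laminin receptors, α6 was called for the label averaged over both days. *Itga6*, which pairs with β1 or β4, was called in the pancreas (mean, 263 against 403 CPM, difference, −0.58 ± 0.11, adjusted P = 0.0075), where the libraries labelled off held 489, 521, 425, 338 and 318 CPM and those labelled on 228, 307, 309, 220 and 249 CPM. It was not called in the liver (−0.29 ± 0.18, adjusted P = 0.313) or the lungs (−0.31 ± 0.18, adjusted P = 0.673). *Itga3* and *Itgb4*, the latter the chain that anchors hemidesmosomes, were called in 0 of the 3 organs. Their differences ran from −0.34 to −0.29 for *Itga3* and from −0.17 to −0.10 for *Itgb4* over the 3 organs.

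Among the remaining members, *Itgav*, the shared αv chain, was called in the pancreas alone (mean, 239 against 287 CPM, difference, −0.26 ± 0.07, adjusted P = 0.0207), and 4 single libraries each removed that call: either labelled off on day 14 and either labelled on on day 7 (adjusted P, 0.0564 to 0.0837). Its difference was −0.66 ± 0.20 (adjusted P = 0.0534) in the liver, −0.42 ± 0.19 (adjusted P = 0.203) there without the paired-end library, and 0.10 ± 0.12 (adjusted P = 0.926) in the lungs. *Itgb5*, the β5 chain of a vitronectin receptor, had differences of 0.19 ± 0.12 in the pancreas and −0.11 ± 0.15 in the lungs. Its liver value on day 7 turned from −1.16 to 0.15 without the paired-end library, in which it held 666 CPM against 131 to 242 CPM in the other 10 liver libraries. *Itga2*, the collagen-binding α2 chain, was called on day 14 in the pancreas, where it was higher in libraries labelled on.

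**Figure D2:**
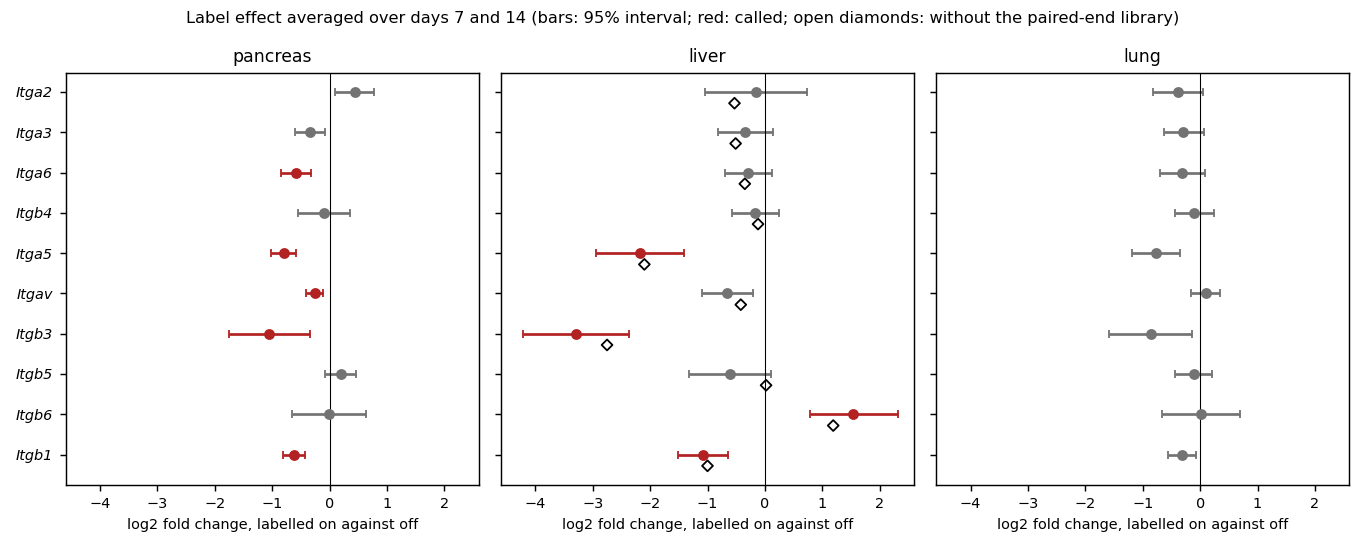
Log2 fold change of each subunit, labelled on against off, averaged over days 7 and 14, in the pancreas, liver and lungs; bars are 95% intervals, red marks an adjusted P value under 0.05 and open diamonds give the liver without the paired-end library. Itgb3 reaches −3.29 in the liver and Itgb6 1.54, while no subunit is called in the lungs.

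Day by day, the pancreas on day 14 called 4 of 10 members (12.9% of 14234 genes): *Itga5* (−0.90 ± 0.12, adjusted P = 0.00313), *Itgb1* (−0.57 ± 0.08, adjusted P = 0.00412), *Itgb3* (−0.95 ± 0.13, adjusted P = 0.00335) and *Itga2* (0.59 ± 0.12, adjusted P = 0.0158). *Itga2* held 114 and 121 CPM in libraries labelled off and 184, 189 and 148 CPM in those labelled on, and its call was lost without either library labelled off or without replicate 2 labelled on (adjusted P, 0.0551 to 0.15). None of these 4 differences exceeded 2-fold. Without replicate 1 labelled on, 7 members were called, in a fit whose share of all genes is not given. In a single fit of all 12 groups, 0 members were called here (0.0912% of 17547 genes). Depth did not overlap between the labels on day 14 in the pancreas. The 2 libraries labelled off held 28.6 M and 32.2 M gene counts, and the 3 labelled on 12.2 M to 14.3 M. Label and depth therefore cannot be told apart in this comparison, and the part of depth in its calls was not tested. The same libraries enter the pancreas average over both days.

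On day 7 in the pancreas 0 members were called by edgeR (2.24% of 14439 genes). An unadjusted P value under 0.05 was reached by 5 members and by 3340 of all genes, and DESeq2 called 4 members (10.1% of all genes). *Itga6* (−0.83 ± 0.17, adjusted P = 0.0594), *Itga5* (−0.68 ± 0.15, adjusted P = 0.065) and *Itgb1* (−0.65 ± 0.16, adjusted P = 0.0872) were nearest. *Itga5* was called (adjusted P = 0.0494) without replicate 1 labelled off. In both libraries labelled on, the fibroblast marker sum was 16637 and 16863 CPM, against 6532 to 8092 CPM in the 3 labelled off. The acinar marker sum went the other way, at 619 and 836 CPM against 1715 to 2739 CPM. The part of either sum in these values was not tested. On day 14 the fibroblast sums were 8141 and 8670 CPM labelled off and 5845 to 12031 CPM labelled on. The acinar sums were 795 and 2769 CPM labelled off and 1356 to 1755 CPM labelled on. Their part in the day 14 values was not tested either.

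In the liver on day 7, 0 members were called by edgeR (0.444% of 16007 genes). An unadjusted P value under 0.05 was reached by 5 members and by 4340 of all genes, and DESeq2 called 5 members (23.6% of all genes). When the paired-end library was left out, 3 were called (5.04% of 17266 genes): *Itga5* (−2.31 ± 0.41, adjusted P = 0.0486), *Itgb1* (−1.18 ± 0.21, adjusted P = 0.049) and *Itgb6* (2.10 ± 0.25, adjusted P = 0.0277), and *Itgb3* missed the threshold (−3.49 ± 0.64, adjusted P = 0.0501). That fit holds 1 library labelled off, which is assumed to vary like the 3 labelled on. Without the other library labelled off, replicate 1, the paired-end library was the 1 labelled off. The differences were then −2.64 for *Itga5*, −1.5 for *Itgb1*, −5.21 for *Itgb3* and 4.24 for *Itgb6*. On day 14, 0 of 10 were called (0% of 14947 genes). An unadjusted P value under 0.05 was reached by 4 members and by 1447 of all genes, and DESeq2 called 2 members (2.68% of all genes). The differences were −1.99 ± 0.35 for *Itgb3* (adjusted P = 0.357), −1.85 ± 0.48 for *Itga5* (adjusted P = 0.357) and −0.80 ± 0.29 for *Itgb1* (adjusted P = 0.464).

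In the lungs edgeR called 0 members on day 7 (0% of 15193 genes), 1 had an unadjusted P value under 0.05 (793 of all genes) and DESeq2 called 0 (0.711%). On day 14 edgeR called 0 (0.0271% of 14751 genes), 4 had an unadjusted P value under 0.05 (1485 of all genes) and DESeq2 called 3 (2.6%). Averaged over both days, 3 members had an unadjusted P value under 0.05 (1596 of 16220 genes) and DESeq2 called 1 (2.47%). The difference between day 14 and day 7 in the label effect was called for 0 members in the pancreas (0.0596% of genes), the liver (0%) and the lungs (0%). An unadjusted P value under 0.05 was reached by 2, 2 and 1 members (2311, 1310 and 953 of all genes), respectively. DESeq2 called 0, 1 and 0 (2.64%, 0.822% and 0.0555% of genes). For *Itgb6* in the liver, the effect was 2.79 on day 7 and 0.31 on day 14 (difference, −2.48 ± 0.67, adjusted P = 0.621). For *Itgb3* it was −4.62 and −1.99 (difference, 2.61 ± 0.79, adjusted P = 0.621).

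The next question was whether the label effect itself differed between organs. Between liver and lungs, 5 of 10 members were called (9.54% of 17547 genes), with the effect in the liver more negative for *Itgb3* (−2.39 ± 0.51, adjusted P = 0.00667), *Itga5* (−1.34 ± 0.33, adjusted P = 0.0137), *Itgb1* (−0.70 ± 0.18, adjusted P = 0.0148) and *Itgav* (−0.70 ± 0.20, adjusted P = 0.0308) and more positive for *Itgb6* (1.59 ± 0.48, adjusted P = 0.0366). Leaving out the paired-end library left 1 called (3.14% of 18638 genes), *Itgb3* at −1.81 ± 0.51 (adjusted P = 0.0483), while *Itga5* stood at −1.24 ± 0.36 (adjusted P = 0.057), *Itgb1* at −0.59 ± 0.19 (adjusted P = 0.071), *Itgav* at −0.43 ± 0.19 (adjusted P = 0.2) and *Itgb6* at 1.25 ± 0.47 (adjusted P = 0.127). The *Itgb3* call held without each single library. Leaving out liver replicate 1 labelled off on day 7 makes the paired-end library the 1 library of that group, so the calls of that fit are not read as a separate result. The *Itgb6* call was lost without any of 18 single libraries (adjusted P, 0.0506 to 0.146), and that of *Itgav* also without replicate 3 on day 14 or replicate 2 on day 7 of the liver labelled on (adjusted P, 0.0524 and 0.0597).

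Between liver and pancreas the label effect differed for 1 member (2.1% of genes), *Itgb3* (−2.19 ± 0.55, adjusted P = 0.0396). With the paired-end library left out, 0 were called (0.365% of genes) and *Itgb3* stood at −1.61 ± 0.54 (adjusted P = 0.182). Its call was lost without any 1 of 13 libraries, all of the liver or the pancreas. The fit without liver replicate 1 labelled off on day 7 again holds the paired-end library as the 1 library of its group, and its calls are not read. Between lungs and pancreas it was called for 0 members (0.0399% of genes), none had an unadjusted P value under 0.05 (1672 of all genes) and DESeq2 called 0 (0.678%). For *Itga5* that difference was 0.04, with a 95% interval of −0.67 to 0.75.

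Levels also differed between organs within each label. Between metastases and primary tumors, *Itga3* and *Itgb4* were higher, *Itgb5* lower and *Itgb6* higher in both metastatic organs and under both labels. In libraries labelled off, 9 of 10 members were called between lungs and pancreas (35% of 17547 genes) and 4 between liver and pancreas (17.3%), or 7 without the paired-end library (24.2%), where *Itga2* (0.87 with it, 1.23 without), *Itgav* (−0.27 and −0.54), *Itgb1* (−0.36 and −0.47) and *Itgb3* were called and *Itgb4* was not. Without the other liver library labelled off on day 7, replicate 1, the paired-end library is the 1 library of that group. *Itga3* was then at 0.57 and *Itgb5* at −0.6 between liver and pancreas. In libraries labelled on, 5 were called between lungs and pancreas (25.9%) and 8 between liver and pancreas (39.8%). The 5 acinar markers summed to 619 to 2769 CPM in the pancreas and 2.94 to 13.2 CPM in the lungs. In the liver without the paired-end library they summed to 4.88 to 16.9 CPM. Their part in the organ differences was not tested.

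*Itga3*, the α chain of the laminin-332 receptor α3β1, ranged from 239 to 332 CPM in the 5 pancreas libraries labelled off and from 411 to 809 CPM in the 8 lung libraries labelled off, without overlap (0.88 ± 0.16, adjusted P = 0.000162). In libraries labelled on it held 201 to 317 CPM in the pancreas, 327 to 634 CPM in the liver and 336 to 567 CPM in the lungs. Both metastatic organs lay above the pancreas (liver, 0.84 ± 0.17, adjusted P = 0.000303; lungs, 0.94 ± 0.18, adjusted P = 0.000363). *Itgb4* was higher in the lungs by 0.81 ± 0.18 labelled off (mean, 624 against 357 CPM, adjusted P = 0.000893) and 0.81 ± 0.19 labelled on (584 against 330 CPM, adjusted P = 0.00283). In the liver it was higher by 0.63 ± 0.20 labelled off (adjusted P = 0.0261) and 0.62 ± 0.19 labelled on (adjusted P = 0.00953). The liver calls of *Itgb4* were the less stable: labelled off, the call was lost without either liver library of day 7, liver replicate 3 of day 14, pancreas replicate 2 of day 7 or either pancreas library of day 14 (adjusted P, 0.0625 to 0.087), and labelled on it was lost without liver replicate 3 or pancreas replicate 1, both of day 7 (adjusted P, 0.0628 and 0.139). *Itga6* was called in 0 of these 6 comparisons. Over the 35 libraries, log2 *Itga3* correlated with the fibroblast marker sum at r = −0.83 and log2 *Itgb4* at −0.7. The 5 lung epithelium markers, surfactant genes among them, summed to 64.2 to 499 CPM in the 14 lung libraries and 0.628 to 1.7 CPM in the pancreas. The part of either sum in these differences was not tested.

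*Itgb5* held 418 to 760 CPM in all 10 pancreas libraries, against 125 to 286 CPM in the 14 lung libraries and 131 to 242 CPM in the 10 liver libraries other than the paired-end one. These ranges did not overlap. It was lower, at −1.32 ± 0.22 (lungs, adjusted P = 4.36e-05) and −0.92 ± 0.25 (liver, adjusted P = 0.0132) in libraries labelled off, the latter −1.59 ± 0.23 (adjusted P = 1.76e-05) without the paired-end library. In libraries labelled on it was lower, at −1.61 ± 0.25 (lungs, adjusted P = 5.93e-05) and −1.67 ± 0.24 (liver, adjusted P = 4.32e-06). The fibroblast marker sum, made up mostly of *Col3a1*, moved with these organ differences. Over the 35 libraries log2 *Itgb5* correlated with that sum at r = 0.92, a description over libraries that share organ and preparation. The part of fibroblast RNA in the *Itgb5* level was not tested.

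**Figure D3:**
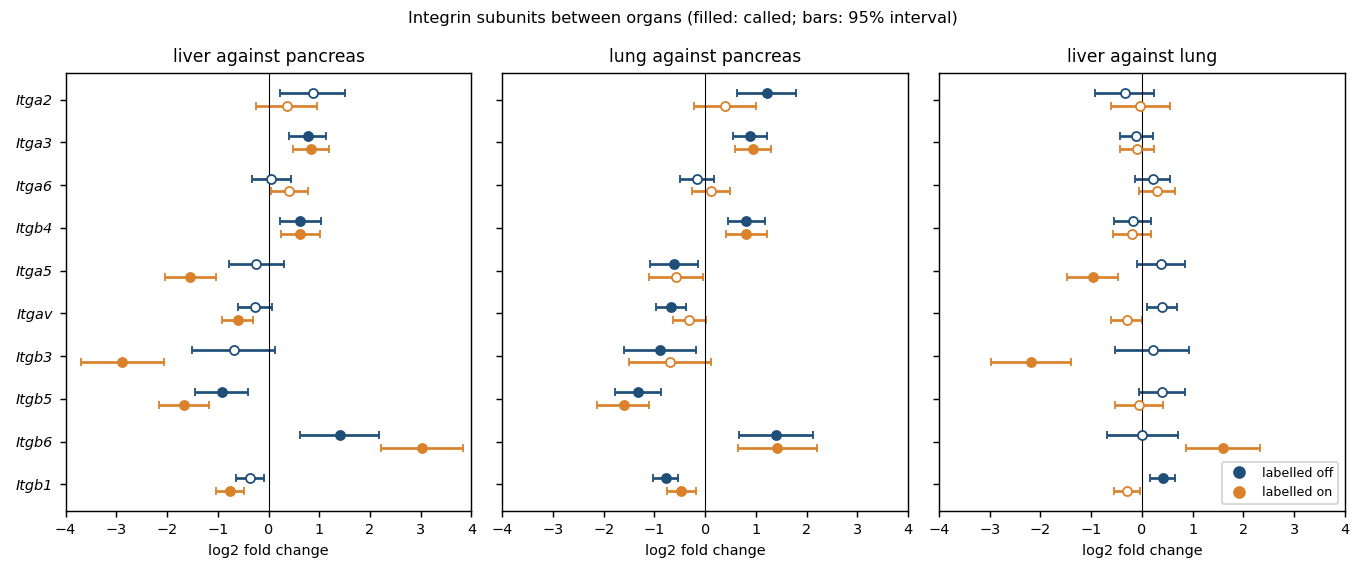
Log2 fold change of each subunit between organs, with blue for libraries labelled off and orange for labelled on; filled points have an adjusted P value under 0.05 and bars are 95% intervals. Itga3, Itgb4 and Itgb6 lie right of 0 and Itgb5 left of 0 in both metastatic organs against the pancreas.

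*Itgb6* was low in primary tumors, at 2.37 to 4.70 CPM labelled off, and higher in metastases. It rose by 1.40 ± 0.35 in the lungs (5.61 to 12.5 CPM, adjusted P = 0.00289) and 1.40 ± 0.38 in the liver (adjusted P = 0.0117) in libraries labelled off, and by 1.42 ± 0.38 in the lungs (adjusted P = 0.00702) and 3.02 ± 0.40 in the liver (8.12-fold, adjusted P = 1.41e-06) in those labelled on. Single libraries carried part of this. Labelled off in the liver, the value was 0.70 without liver replicate 1 of day 7, which leaves the paired-end library as the 1 library of that group. It was 1.74 without the paired-end library and 1.34 without pancreas replicate 1 of day 14. Labelled on in the lungs, it was 0.81 (adjusted P = 0.136) without lung replicate 1 of day 7 and 1.28 (adjusted P = 0.0529) without pancreas replicate 2 of day 7. The 6 carcinoma epithelium markers summed to 2549 to 7846 CPM in the pancreas, 12137 to 16476 CPM in the liver without the paired-end library and 6109 to 14353 CPM in the lungs, and log2 *Itgb6* correlated with that sum at r = 0.78 over the 35 libraries. The lung libraries also held the lung epithelium markers at the sums given above. The part of either sum in the *Itgb6* difference was not tested.

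*Itga5*, *Itgb1*, *Itgb3* and *Itgav* were lower in metastases where they were called against primary tumors. In libraries labelled on, the liver lay far below the pancreas for *Itgb3* (−2.88 ± 0.40, 7.36-fold, adjusted P = 2.77e-06) and *Itga5* (−1.54 ± 0.25, adjusted P = 1.97e-05), and also for *Itgb1* (−0.76 ± 0.13, adjusted P = 4.35e-05) and *Itgav* (−0.61 ± 0.15, adjusted P = 0.00204). In libraries labelled off, the 2 organs did not differ at the threshold for *Itgb3* (−0.69 ± 0.40, adjusted P = 0.234) or *Itga5* (−0.24 ± 0.26, adjusted P = 0.561), and without the paired-end library *Itgb3* was called at −1.27 ± 0.45 (adjusted P = 0.0403). Lungs against pancreas labelled off, *Itgb1* (−0.78 ± 0.12, adjusted P = 2.1e-05), *Itgav* (−0.67 ± 0.14, adjusted P = 0.000522), *Itgb3* (−0.89 ± 0.35, adjusted P = 0.0464) and *Itga5* (−0.61 ± 0.23, adjusted P = 0.041) were lower and *Itga2* was higher (1.21 ± 0.29, adjusted P = 0.00184, with r = −0.68 between its log2 level and the fibroblast sum over the 35 libraries). The calls of *Itgb3* and *Itga5* there were lost without any of 15 and 7 single libraries, respectively (adjusted P, 0.0504 to 0.22 and 0.0566 to 0.122), and *Itgb3* stood at −0.57 without pancreas replicate 3 of day 7. In libraries labelled on, *Itgb1* was lower in the lungs (−0.47 ± 0.13, adjusted P = 0.0116), with an adjusted P value of 0.0565 without pancreas replicate 1 of day 7.

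Between the 2 metastatic organs, libraries labelled on differed for *Itgb3* (mean, 4.87 CPM in the liver against 21.9 CPM in the lungs, difference, −2.18 ± 0.38, adjusted P = 0.000234), *Itga5* (43.9 against 86.2 CPM, −0.97 ± 0.24, adjusted P = 0.00502) and *Itgb6* (28.1 against 9.52 CPM, 1.6 ± 0.35, adjusted P = 0.00196), with 20.1% of genes called. Libraries labelled off differed for *Itgb1* alone (8.8% of genes, difference, 0.41 ± 0.12, adjusted P = 0.033). No member was called there, 0 of 10, without the paired-end library (6.88% of genes), *Itgb1* at 0.31 with an adjusted P value of 0.177, and the call was also lost without any 1 of 4 others (liver replicate 1 and lung replicates 1 and 2, all of day 14, and lung replicate 3 of day 7; adjusted P, 0.0526 to 0.112). The 3 organ comparisons of a label share libraries, so their values are given side by side and not as separate evidence.

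The members formed groups by how they varied over the 35 libraries. The highest correlations of log2 CPM were between *Itga5* and *Itgb1* (r = 0.90), *Itga5* and *Itgb3* (0.88) and *Itga3* and *Itgb4* (0.85), and the lowest between *Itga3* and *Itgb5* (−0.78) and *Itgb3* and *Itgb6* (−0.74). These values describe 35 libraries that share organs and labels. Among 17547 genes, those most like *Itga5* were *Msn*, *Csgalnact1* (both r = 0.96) and *Cep170* (0.94), and those most like *Itgb1* were *Tpm4* (0.96), *Ltbp1* (0.95) and *Dock8* (0.94). *Itgb3* was most like *Dpysl3*, *Dbn1* and the fibronectin gene *Fn1* (all 0.94). *Itgb6* was most like *Slc52a3*, the tight junction gene *Ocln* and *Mal2* (all 0.97). *Itga3* and *Itgb4* were among each other's 3 most similar genes. The genes nearest to *Itgb5* were *Adamts4*, *Fzd1* and *Olfml3* (all 0.95), to *Itgav* *Wnk1* (0.90), *Adgrl3* and *Specc1l* (both 0.89), to *Itga2* *Ptprk* (0.88), *Mboat1* (0.86) and *Exoc6* (0.85), and to *Itga6* *F2rl1* (0.74), *Prrg4* (0.72) and *Ppp2r2a* (0.71).

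**Figure D4:**
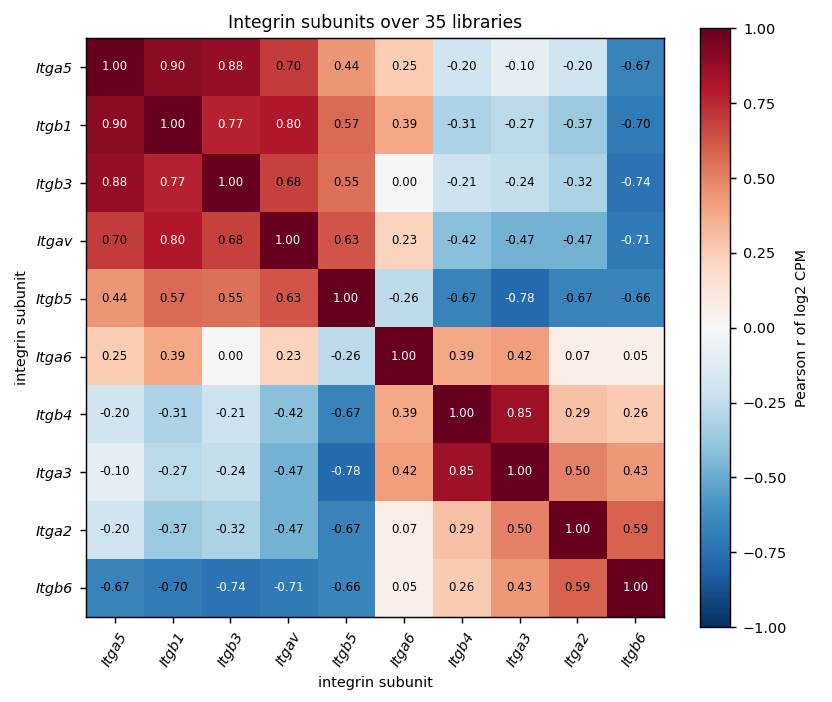
Pearson correlation of log2 CPM between the 10 integrin subunits over the 35 libraries, with colors from −1 (blue) to 1 (red). Itga5, Itgb1, Itgb3 and Itgav form a block at 0.68 or above, and Itgb6 is at −0.67 or below with all 4 of them.

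Ligands of these receptors that were called for the label on average over both days were lower in libraries labelled on. On day 14 alone, the pancreas had 1 called higher and 3 lower (12.9% of all genes called). Of 20 ligand genes, 0 were called higher and 9 lower in the liver on average over both days (14.6% of all genes called), with a median of −1.18 against −0.02 for all genes tested, and the 3 with the lowest adjusted P values were the laminin chain *Lamb1* (−2.06 ± 0.25, adjusted P = 0.0055), the growth factor *Tgfb1* (−1.68 ± 0.25, adjusted P = 0.00652) and *Fn1* (−2.97 ± 0.45, adjusted P = 0.00708). In the liver fit that left out the paired-end library, 4 were called lower (6.6% of 18022 genes), namely *Lamb1*, *Fn1*, *Tgfb1* and *Npnt*, with a median of −0.42. In the pancreas 0 were higher and 3 of 20 lower, below the 19% of all genes called there, namely *Fn1* (−0.91 ± 0.12, adjusted P = 0.0013), *Lamb3* (−0.74 ± 0.18, adjusted P = 0.0223) and *Tgfb1* (−0.26 ± 0.07, adjusted P = 0.0382). In the lungs 0 of 19 tested were called (0.129%). Between organs, labelled off, 9 were lower and 5 higher in the liver (17.3% of all genes called) and 13 lower and 3 higher in the lungs (35%) against the pancreas. The median of the list there was −0.87 in the liver, −1.25 in the liver without the paired-end library and −1.13 in the lungs. Labelled on, 14 were lower and 4 higher in the liver (39.8%) and 11 lower and 1 higher in the lungs (25.9%). Many ligands are also made by fibroblasts, whose marker sum had a median of 8310 CPM in the pancreas, 550 CPM in the liver without the paired-end library and 283.5 CPM in the lungs, and its part in these counts was not tested.

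Adaptors and activators of integrins that were called were mostly lower in libraries labelled on. Of 36 such genes, 0 were higher and 11 lower in the liver (14.6% of all genes called, median of the list, −0.39), led by *Parvb*, β-parvin (−2.82 ± 0.45, adjusted P = 0.00749), *Flna*, filamin A (−1.15 ± 0.18, adjusted P = 0.00767), and *Lims1*, PINCH1 (−0.64 ± 0.12, adjusted P = 0.0115). In the fit without the paired-end library 7 were lower (6.6%), these 3 among them. In the pancreas 5 were higher and 15 lower (19%, median, −0.22 against 0 for all genes), with *Zyx*, zyxin (−1.02 ± 0.12, adjusted P = 0.000723), *Vcl*, vinculin (−0.55 ± 0.07, adjusted P = 0.00124), and *Flna* (−0.64 ± 0.09, adjusted P = 0.00143) having the lowest adjusted P values. In the lungs 0 of 36 were called (0.129%).

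Platelet markers are given because *Itgb3* is also a platelet gene. The 5 platelet and megakaryocyte markers summed to 3.44 to 8 CPM in the 4 liver libraries labelled off other than the paired-end one, 6.19 CPM in that one and 13.9 to 30.2 CPM in the 6 labelled on. Their part in the *Itgb3* values was not tested.

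The other 17 integrin subunits were mostly scarce, with medians over the 35 libraries of 90.4 CPM for *Itga1*, 13.9 CPM for *Itga7*, 13.6 CPM for the leukocyte chain *Itgb2* and at most 6.99 CPM for the other 14. In the pancreas 3 of 14 tested were higher and 1 lower in libraries labelled on (19% of all genes called), with *Itga8* (3.33 ± 0.58, adjusted P = 0.00557), *Itga11* (1.89 ± 0.39, adjusted P = 0.0152) and *Itga1* (1.37 ± 0.34, adjusted P = 0.0286) higher. The fibroblast sum was also higher in both day 7 pancreas libraries labelled on, as given above, and its part was not tested. In the liver 2 of 16 were higher and 1 lower (14.6%), *Itga8* (2.39 ± 0.62, adjusted P = 0.0329), *Itga7* (1.28 ± 0.36, adjusted P = 0.0419) and *Itga10* (−2.04 ± 0.59, adjusted P = 0.0459). Without the paired-end library *Itga10* stood at −0.47 (adjusted P = 0.45) and *Itga8* at 2.72 (adjusted P = 0.0745). In the lungs 0 of 16 were called (0.129%).

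**Figure D5:**
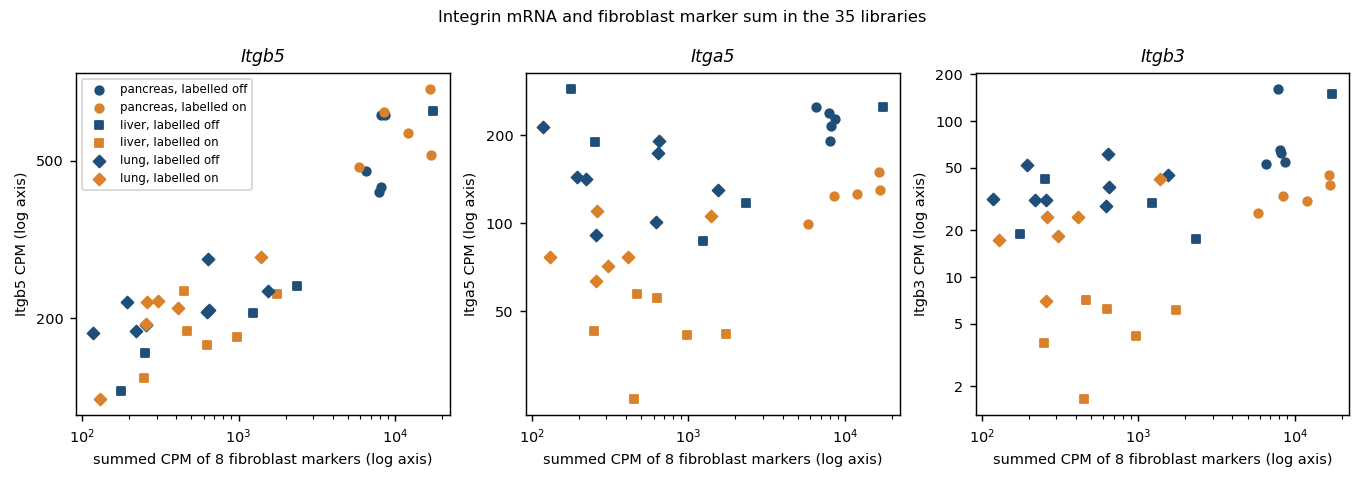
CPM of Itgb5, Itga5 and Itgb3 (log axes) against the summed CPM of 8 fibroblast markers in each of the 35 libraries, with shapes for organs and colors for labels. The correlation of the log2 values with the marker sum is 0.92 for Itgb5, 0.35 for Itga5 and 0.46 for Itgb3.

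Marker sums of other cell types are given beside the liver label effect. Without the paired-end library the fibroblast sum was 177 to 2353 CPM in the 4 liver libraries labelled off and 250 to 1750 CPM in the 6 labelled on, and the epithelial sum was 12137 to 16266 CPM and 14338 to 16476 CPM. On day 7, the remaining library labelled off and the 3 labelled on did not overlap in the epithelial sum (12137 against 15086 to 16476 CPM), the hepatocyte sum (16.8 against 56.8 to 142 CPM) or the myeloid sum (15.5 against 37.1 to 71.8 CPM). The part of these sums in the label effect was not tested. A set of 10 liver and lung libraries also held counts of the mitochondrial gene *mt-Co3*, which the other libraries lacked. Within libraries with or without such counts in each organ and day, the mean log2 difference was negative in 10 of 10 values for *Itga5* (−3.29 to −0.25) and *Itgb3* (−6.11 to −0.59). It was negative in 9 of 10 for *Itgb1* (−1.40 to 0.17) and 3 of 10 for *Itgb6* (−0.96 to 4). The lowest value of the first 3 genes and the highest of *Itgb6* set 1 library against the paired-end one. The pancreas had no libraries with such counts, so its values are not split. In the liver on day 14, *Itgb6* stood at −0.35 with such counts and 0.7 without. The part of this set in the label effect was not tested.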

How the data were processed

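RNA-seq of sorted mKate2+ tumor cells gave 35 libraries. The deposited table holds raw read counts per gene, which the authors made from 75-base stranded poly(A) reads. Their processing notes name Trimmomatic 0.36, FastQC 0.11.5, STAR 2.5.3a and featureCounts 1.6.3, and the build is GRCm38. Totals of 11885461 to 43571007 counts (median, 19415320) put the floor of 3 counts at 0.0689 to 0.252 CPM, which covers counting error only.

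Groups followed the labels. A further allele that all groups share is not reported here. Counts were filtered with filterByExpr (minimum count, 10, and minimum total, 15), scaled by TMM and tested with edgeR 4.0.16 (R 4.3.3) by its quasi-likelihood F test over all genes, with Benjamini-Hochberg adjustment and a threshold of 0.05. Label effects were fitted within each organ and day, and over both days with equal weight. Organ and organ-by-label effects came from a fit of all libraries. Correlations used log2 CPM. The scripts were tested on simulated data. Alternatives were DESeq2 1.42.0, its size factors, no count filter, a fold over 2, a term for libraries with *mt-Co3* counts, a replicate block, other sets of libraries in the fit, and each library left out. Replicates of a group were not identical.

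The members, lists and motifs were chosen with earlier results of these data known. All 10 members are named, and of each list at most 3 called genes per comparison, those with the lowest adjusted P values, except the 4 ligands left in the liver and the genes followed without the paired-end library, which were named after their values were seen. The labels do not say that replicate numbers pair the samples. In the lungs on day 14, deviations of same-numbered libraries from their group means correlated at r = 0.47, 0.51, 0.59 and 0.53. For replicates 1, 2 and 4, a library labelled off with another number correlated more. Replicates 1 and 2 there lacked *mt-Co3* counts and replicates 3 and 4 held them, and the part of this in the correlations was not tested. The correlations were 0.08, 0.09 and 0.54 in the liver on day 14, and the other sets had 2 pairs.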

Additional observations from a re-analysis of the deposited data

Results flagged for a closer look

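The label effect differed between organs for 5 members, by a test of the difference itself. Between liver and lungs, where 9.54% of all genes were called, edgeR's quasi-likelihood test gave differences on the log2 scale of −2.39 for *Itgb3* (adjusted P = 0.00667), −1.34 for *Itga5* (adjusted P = 0.0137), −0.7 for *Itgb1* (adjusted P = 0.0148), −0.7 for *Itgav* (adjusted P = 0.0308) and 1.59 for *Itgb6* (adjusted P = 0.0366). Between liver and pancreas, where 2.1% of all genes were called, it gave −2.19 for *Itgb3* (adjusted P = 0.0396). Without the paired-end liver library 1 of these 6 differences was called, that of *Itgb3* between liver and lungs (−1.81, adjusted P = 0.0483), with 3.14% of all genes called between liver and lungs and 0.365% between liver and pancreas.

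A test for a library apart from its group was run on groups of 4 libraries only, all from the lungs (day 7 labelled off, and both labels on day 14). In these 30 sets 0 were found, and a set of 4 libraries gives such a test little power. The pancreas and liver groups, the paired-end library among them, were not tested in this way.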

How the results depend on the processing

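Counts of called members changed with these settings. Percentages in brackets are the shares of all genes called. With DESeq2, day 7 gave 4 in the pancreas (10.1%) and 5 in the liver (23.6%). Day 14 gave 2 in the liver (2.68%) and 3 in the lungs (2.6%). There was 1 for the lung average (2.47%) and 1 for label by day in the liver (0.822%). Organ by label between liver and pancreas had 3 (5.41%), and liver against lungs labelled off had 2 (12.7%). DESeq2 size factors gave 2 for organ by label between liver and pancreas (2.44%). Without the count filter day 7 gave 4 (pancreas) and 2 (liver), day 14 gave 1 (lungs), and there were 1 for label by day in the pancreas, and 0 (liver against pancreas) and 3 (liver against lungs) for organ by label. A fold over 2 left 0 in the pancreas on day 14, 1 for its average, 3 for organ by label between liver and lungs, 1, 3 and 0 labelled off (liver and lungs against pancreas, liver against lungs), and 4 and 2 labelled on. The share of all genes at that fold is not given. The *mt-Co3* term gave 2 in the liver on day 7, 2 in the lungs on day 14, 3 for organ by label between liver and pancreas and 2 between liver and lungs labelled off, and could not be fitted within the pancreas. A single fit of all groups gave 6 (24.8%) and 2 (1.94%) in the liver on days 7 and 14 and 0 in the pancreas on day 14 (0.0912%). A fit of the libraries of that label gave 0 between liver and lungs labelled off (6.2%). The cause of these changes was not tested.

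With the replicate block, 1 member was called in the lungs on day 14 (1.38% of all genes). The liver average had 2 (2.79%), with *Itga5* and *Itgb3* kept and *Itgb1* and *Itgb6* lost. The pancreas average had 2 (2.12%), with *Itgb1* and *Itgb3* kept and *Itga5*, *Itga6* and *Itgav* lost. The block uses fewer libraries in these 2 averages. The count stayed at 4 in the pancreas on day 14 (7.36%) and at 0 in the other label comparisons. *Itgb6* in the lung average was −0.19 under the block, against 0.01.

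Leaving out each library in turn gave 0 to 1 in the pancreas and 0 to 7 in the liver on day 7, 3 to 7 in the pancreas on day 14, 3 to 6 and 4 to 6 for the pancreas and liver averages, 0 to 2 for label by day in the liver, 0 to 7, 7 to 9 and 0 to 4 labelled off, 7 to 9, 4 to 6 and 3 to 4 labelled on, and 0 to 4 (liver against pancreas) and 1 to 7 (liver against lungs) for organ by label. The shares of all genes called in the fits with 1 library left out are mostly not given, so these counts are not read against other genes. *Itgb6* changed sign, always uncalled, and ranged over −0.56 to 0.33 in the lung average, −0.18 to 0.18 in the pancreas average and −1.58 to 0.2 in the lungs on day 7. Over all settings of the 75 single-gene results recomputed (those called, and *Itga5*, *Itgb1*, *Itgb3* and *Itgb6* for the label), 1788 values kept their direction and call, 110 lost a call, 35 gained one and 11 changed sign. Among results outside these 75, leaving out the paired-end library turned *Itgb5* in the liver from −1.16 to 0.15 on day 7 and from −0.61 to 0.02 on average, and, between liver and lungs labelled off, *Itgb5* from 0.4 to −0.27 and *Itgb3* from 0.21 to −0.37, among others, all uncalled.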
